A study of Homo sapiens with 4 samples.

Results

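Long noncoding RNAs (lncRNAs) were examined in TPC1 cells, a long-established line from a human papillary thyroid cancer, by RNA sequencing. TPC1-C1orf106 cells expressed C1orf106, now named INAVA, from a vector that the methods describe as retroviral, whereas TPC1-Vector cells carried the empty vector. Both groups were selected with 0.5 μg/mL puromycin for 2 weeks, and 2 libraries were sequenced in each. Whether the selected cells of these groups were pools or single clones is not given in the sources used here. The study compared the groups to find genes altered by C1orf106. The deposited table lists 13165 genes with 1 value per gene and group, expressed as FPKM (a fragment count scaled to transcript length and to the mapped fragments of the library), so no SD, replicate check or test between the groups was possible, and the depth is unknown.

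The lncRNAs were chosen by name. A gene was taken when its symbol began with LINC and digits, when it was a microRNA (miRNA) host gene written as MIR, digits and HG, or when it was 1 of 8 lncRNAs named in advance (MALAT1, NEAT1, H19, HOTAIR, GAS5, PVT1, MEG3 and TUG1). Symbols with -AS were left out. This gave 154 genes, of which 139 were LINC entries, 10 were miRNA host genes and 5 were named lncRNAs. H19, HOTAIR and MEG3 were not among the genes of the table.

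LncRNAs are transcripts that act largely without being translated. Some build nuclear bodies, some bind proteins or miRNAs, some regulate the gene next to them by being transcribed, and miRNA host genes are cut in the nucleus to release miRNA hairpins. LINC is a placeholder given to intergenic transcripts, and it is replaced when a function, a coding sequence or a relation to a neighbouring gene becomes known. Many lncRNAs are altered in thyroid and other cancers.

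The 10 genes named as miRNA hosts hold miRNAs of known sequence, so a selection of the mature miRNAs within them is shown, mostly 1 arm of each hairpin. They were taken from RefSeq (GRCh38.p14) and are written 5′ to 3′ with the seed (bases 2 to 8) in capitals. An entry was found for all 10 host genes, and those of MIR600HG and MIR762HG are not shown. Some other lncRNAs of the rule also hold miRNAs, among them LINC00852, LINC01057, NEAT1 and PVT1, and these are not shown either. The library did not measure mature miRNAs. The let-7 seed GAGGUAG occurred in 3 hosts, and MIR100HG and MIR99AHG, which hold related clusters, shared 3 seeds.
hsa-miR-100-5p of MIR100HG (chr11:122152275-122152296, minus strand): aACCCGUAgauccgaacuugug
hsa-miR-99a-5p of MIR99AHG (chr21:16539101-16539122, plus strand): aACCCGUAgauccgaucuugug
hsa-let-7a-5p of MIR100HG (chr11:122146568-122146589, minus strand): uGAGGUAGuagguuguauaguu
hsa-let-7c-5p of MIR99AHG (chr21:16539838-16539859, plus strand): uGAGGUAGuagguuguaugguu
hsa-miR-4458 of MIR4458HG (chr5:8460933-8460951, plus strand): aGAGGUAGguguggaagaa
hsa-miR-125b-5p of MIR100HG and MIR99AHG (chr11:122099809-122099830, minus strand and chr21:16590253-16590274, plus strand): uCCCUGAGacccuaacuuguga
hsa-miR-22-3p of MIR22HG (chr17:1713914-1713935, minus strand): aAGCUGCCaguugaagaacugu
hsa-miR-155-5p of MIR155HG (chr21:25573983-25574006, plus strand): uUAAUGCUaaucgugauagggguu
hsa-miR-31-5p of MIR31HG (chr9:21512158-21512178, minus strand): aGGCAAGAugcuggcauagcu
hsa-miR-210-3p of MIR210HG (chr11:568112-568133, minus strand): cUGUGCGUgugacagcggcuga

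The miRNAs of MIR17HG, the host of the miR-17-92a cluster, fell into 4 seed groups among the arms shown here. They are given because 2 of the groups join different hairpins of the same transcript.
hsa-miR-17-5p (chr13:91350618-91350640, plus strand): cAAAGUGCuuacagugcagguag
hsa-miR-20a-5p (chr13:91351072-91351094, plus strand): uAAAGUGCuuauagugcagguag
hsa-miR-18a-5p (chr13:91350756-91350778, plus strand): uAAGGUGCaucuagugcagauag
hsa-miR-19a-3p (chr13:91350939-91350961, plus strand): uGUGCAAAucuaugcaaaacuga
hsa-miR-19b-3p (chr13:91351245-91351267, plus strand): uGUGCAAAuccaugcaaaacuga
hsa-miR-92a-3p (chr13:91351361-91351382, plus strand): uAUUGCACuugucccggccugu

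C1orf106 itself was at 7.96 FPKM with the empty vector and 123 FPKM with the C1orf106 vector, in the direction of the labels. Of 9 thyroid markers, PAX8 (60.1 and 55.7 FPKM) and FOXE1 (5.26 and 5.89 FPKM) were in the table, and thyroglobulin, thyroid peroxidase, the TSH receptor, NKX2-1 and the iodide transporter were not among its genes. Of 6 epithelial markers 3 were listed, and the keratins KRT18 (140 and 212 FPKM) and KRT8 (23.4 and 10.5 FPKM) differed in opposite directions. Both keratins share 1 deposited position, so reads may be divided between them. Of 7 leukocyte and endothelial markers, only CD68 was listed, at 5.76 and 8.67 FPKM, and its part in the lncRNA values was not tested. Throughout, values are given for TPC1-Vector first and TPC1-C1orf106 second, and fewer cells making an RNA cannot be told apart from less RNA per cell.

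LncRNAs were weakly expressed compared with the rest of the table. Their median was 0.966 FPKM with the empty vector and 0.971 FPKM with C1orf106, against 10.0 FPKM in each group over all genes. Of the 154 lncRNAs 75 (48.7%) were under 1 FPKM in both groups, compared with 11.9% of all genes, and 18 (11.7%) reached a mean of 10 FPKM, compared with 50.2% of all genes. A few RNAs made up most of the lncRNA signal. The 10 most abundant lncRNAs held 64.7% of the summed lncRNA FPKM in TPC1-Vector and 65.1% in TPC1-C1orf106. GAS5 was the highest in both groups, followed in TPC1-Vector by LINC00152, LINC00657 and LINC00958. In TPC1-C1orf106 the order was LINC00657, LINC00152 and LINC00506, and without replicates the order of such near values cannot be told.

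**Figure D1:**
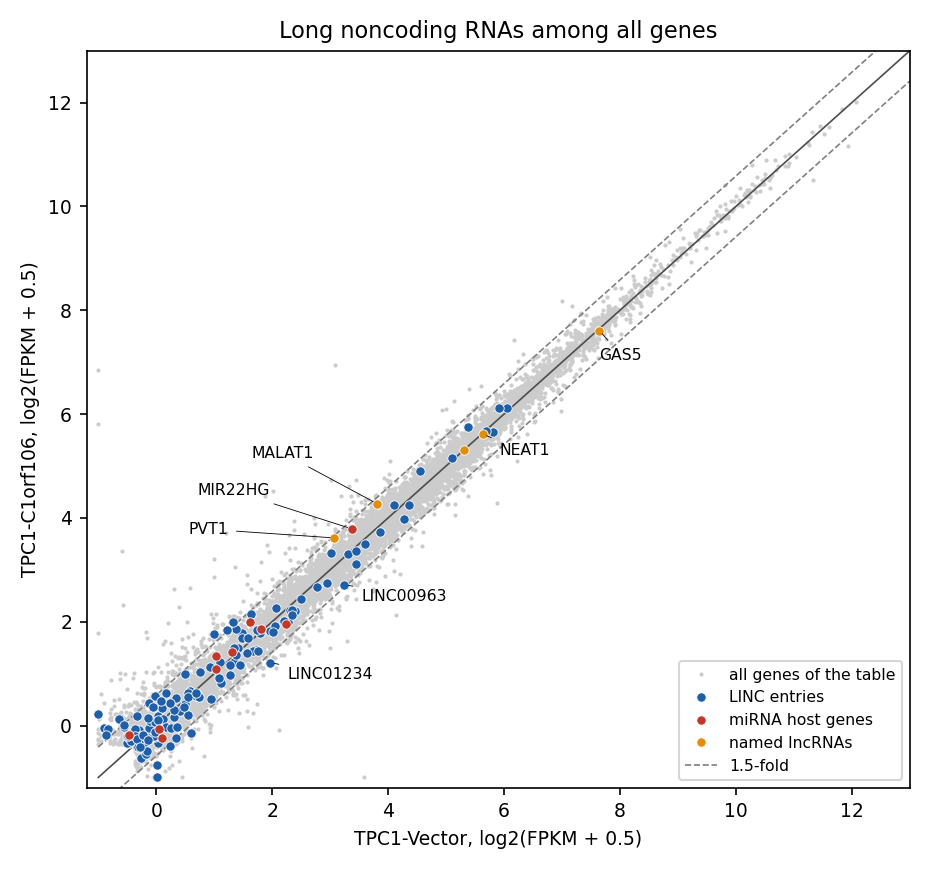
Each point is a gene, with log2(FPKM + 0.5) in TPC1-Vector on the x axis and in TPC1-C1orf106 on the y axis. Grey points are all genes (SNORA57 and any other gene past the axes are not drawn), coloured points are the 154 lncRNAs, the solid line marks equal values and the dashed lines a 1.5-fold difference. The lncRNAs lie mostly at the low end and along the line of equal values.

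For the comparison, a difference is log2(FPKM + 0.5) in TPC1-C1orf106 minus that in TPC1-Vector, a scale that understates differences of weak genes. A gene was called higher or lower when it differed at least 1.5-fold on this scale. Only genes whose mean over both groups reached 0.5 FPKM were compared, which left 12305 genes and 105 of the 154 lncRNAs. Of these 105, 4 were called higher and 2 lower. After quantile normalization the split was 3 higher and 3 lower. Over all genes compared, 2.24% were called higher and 1.45% lower. The median difference of the 105 lncRNAs was -0.021, beside 0.0033 over all genes compared, and 50 lncRNAs were above 0 and 55 below. On this scale none of the 105 reached a 2-fold difference. Over all genes compared, 0.61% were at least 2-fold higher and 0.244% at least 2-fold lower, and 0 of 105 is near these shares. Without the added 0.5 FPKM, LINC00852 and LINC01127 were past 2-fold higher and LINC00106 and LINC00704 past 2-fold lower.

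The differences were compared by level of expression, divided at a mean of 5 FPKM. All 6 called lncRNAs had a mean under 5 FPKM. In this range 79 lncRNAs were compared and 7.59% were called in either direction, beside 6.91% of the 3721 genes at the same levels, of which 4.43% were higher and 2.47% lower. Of the 26 lncRNAs at a mean of 5 FPKM or more, 0 were called, beside 2.31% of the 8584 genes at these levels. The median size of the difference was 0.20 for lncRNAs under 5 FPKM and 0.14 for those at or above it, compared with 0.16 and 0.11 for all genes. In narrower ranges the lncRNA median did not fall steadily with level. It was 0.20 at 0.5 to 1 FPKM, 0.17 at 1 to 2, 0.21 at 2 to 5, 0.26 at 5 to 10 and 0.13 at 10 or more. The range of 5 to 10 FPKM held only 8 lncRNAs, and the median of all genes there was 0.12. The lncRNA shares were near those of all genes of like level.

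**Figure D2:**
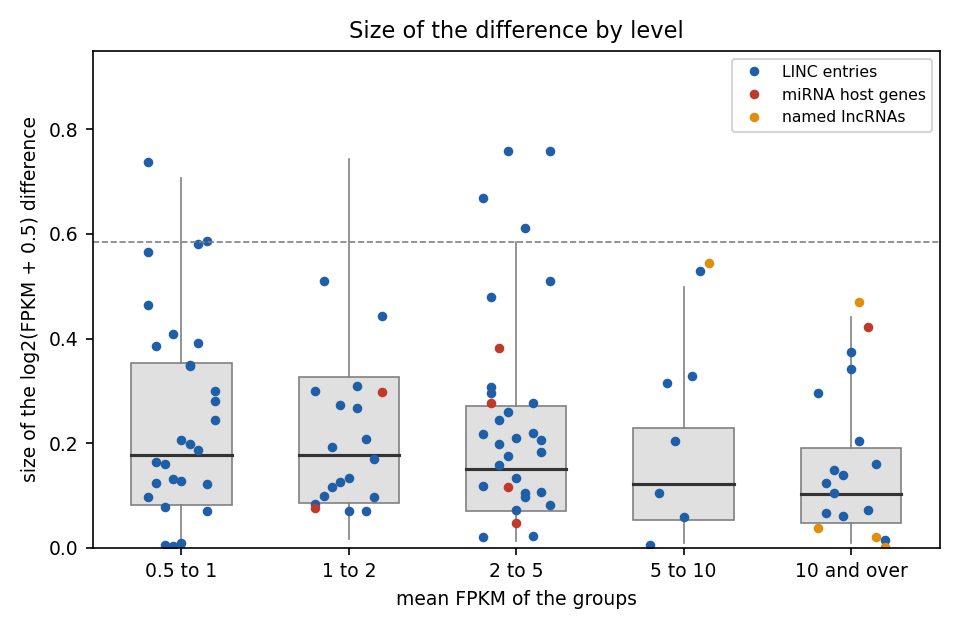
The size of the log2(FPKM + 0.5) difference (y axis) is drawn by the mean FPKM of the groups (x axis) for the 105 lncRNAs compared (points). Boxes give the quartiles and whiskers the 5th and 95th percentiles of all genes at that level, the thick line is their median and the dashed line marks 1.5-fold. Points above the dashed line are found only under 5 FPKM.

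**Figure D3:**
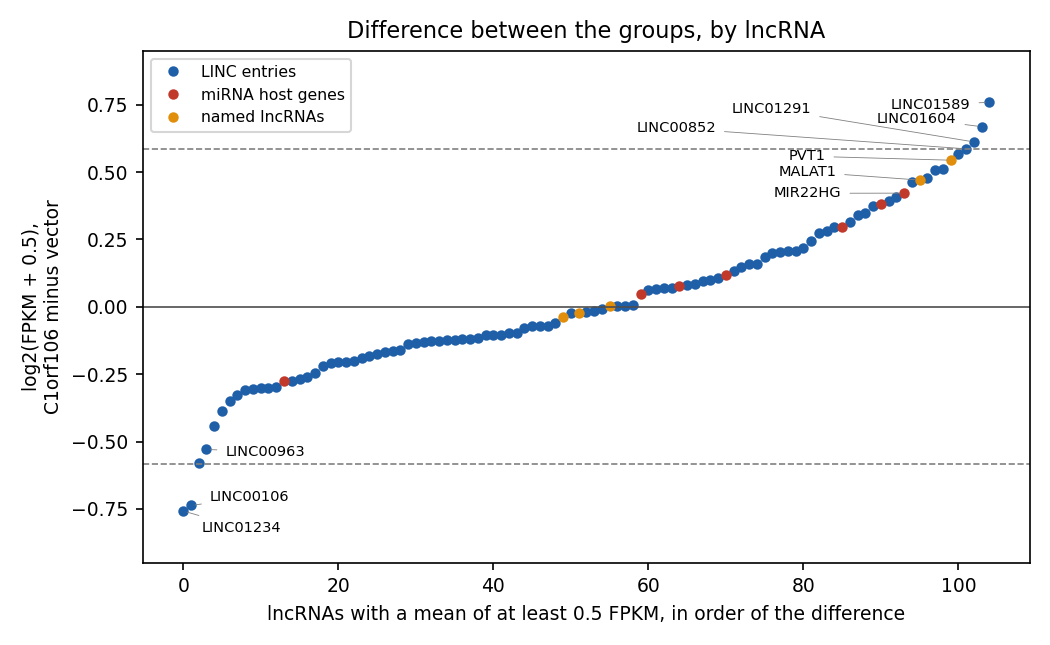
The 105 lncRNAs compared are ordered on the x axis by their difference, given on the y axis as log2(FPKM + 0.5) in TPC1-C1orf106 minus TPC1-Vector. Dashed lines mark 1.5-fold, with 4 lncRNAs above the upper line and 2 below the lower line.

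Among the named lncRNAs, 0 of 5 were called, beside 3.7% of all genes compared. They fell into nearly equal and less equal pairs of values. GAS5, the host of a family of small nucleolar RNAs (snoRNAs), was at 199.9 and 194.8 FPKM. It lies on chromosome 1 (173863248 to 173867987, GRCh38). NEAT1, the scaffold of the nuclear bodies called paraspeckles, was at 49.1 and 48.4 FPKM. TUG1, described as a lncRNA of both nucleus and cytoplasm but now classed as protein coding in RefSeq, was at 39.2 FPKM in each group. For these RNAs the difference was between -0.037 and 0.0023, less than the median size of 0.10 for all genes at a mean of 10 FPKM or more.

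MALAT1 and PVT1 were both at greater values in TPC1-C1orf106. MALAT1 (chromosome 11, 65497762 to 65506512), an RNA of nuclear speckles whose mature 3′ end is a triple helix in place of a poly(A) tail, was at 13.5 and 18.9 FPKM, a difference of 0.47. It lies on the same chromosome arm as NEAT1, whose values were nearly equal. PVT1 (chromosome 8, 127890628 to 128101253), which neighbours the oncogene MYC, was at 7.90 and 11.8 FPKM, a difference of 0.54, just under the 1.5-fold line at 0.58. MYC was at 97.2 and 98.7 FPKM, a difference of 0.02 against 0.54 for its lncRNA neighbour.

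**Figure D4:**
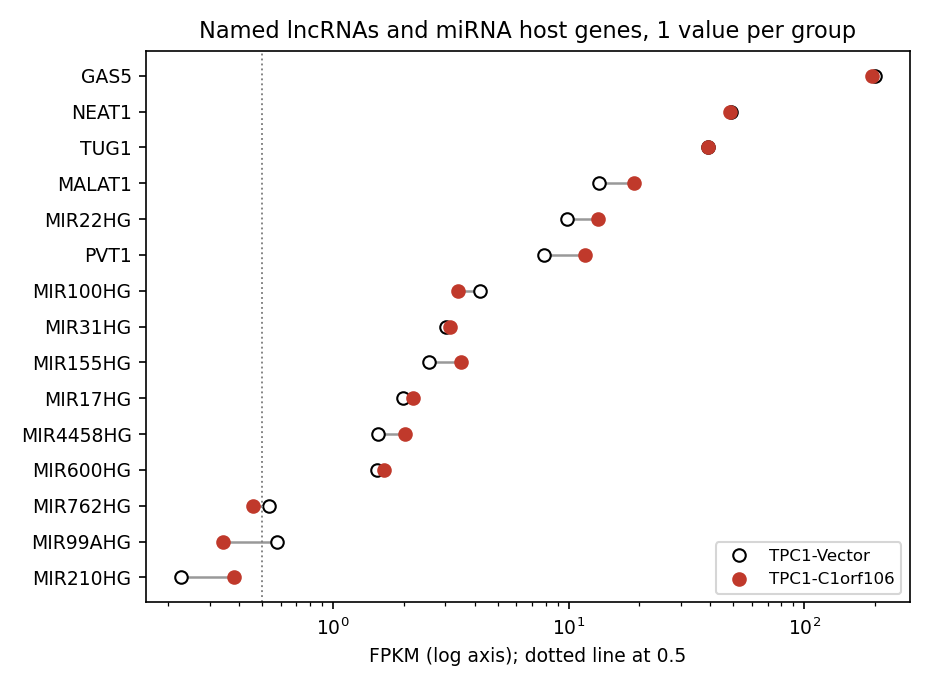
FPKM on a log axis (x) is shown for the 5 named lncRNAs and the 10 miRNA host genes (y), with an open point for TPC1-Vector and a filled point for TPC1-C1orf106, each the authors' value for the group. MALAT1, PVT1, MIR22HG and MIR155HG lie to the right in TPC1-C1orf106, and GAS5, NEAT1 and TUG1 have almost coinciding points.

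Of the 10 miRNA host genes, 7 passed the filter on low values and 0 were called, beside 3.7% of all genes compared. MIR22HG, the host of miR-22, was the most abundant at 9.84 and 13.3 FPKM, a difference of 0.42. Its deposited position is on an alternate sequence of chromosome 17, so reads could also match the main chromosome. MIR155HG (chromosome 21, 25562145 to 25575168), the host of the immune-regulatory miR-155, was at 2.56 and 3.48 FPKM, a difference of 0.38. MIR4458HG was at 1.55 and 2.02 FPKM, a difference of 0.30. MIR17HG, the host of the oncogenic miR-17-92a cluster, was at 1.97 and 2.18 FPKM, MIR31HG at 3.01 and 3.13 FPKM and MIR600HG at 1.53 and 1.64 FPKM. These 6 hosts had the greater value in TPC1-C1orf106, and MIR100HG, which also passed the filter and is given next, had the smaller. Over all 10 hosts, 7 had the greater and 3 the smaller value, beside 51% of all genes with the greater value.

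MIR100HG and MIR99AHG, whose miRNAs share the seeds shown above, both had the smaller value in TPC1-C1orf106. MIR100HG (chromosome 11, 122089103 to 122203062) was at 4.23 and 3.40 FPKM, a difference of -0.28. MIR99AHG (chromosome 21, 16070522 to 16609775) was at 0.576 and 0.341 FPKM and did not pass the filter. The third host with a let-7 seed, MIR4458HG, had the opposite direction. MIR762HG (0.535 and 0.456 FPKM) and MIR210HG, the host of the hypoxia-induced miR-210 (0.226 and 0.381 FPKM), did not pass the filter either.

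Among the genes that process miRNA hairpins, 0 were called, beside 3.7% of all genes compared. Of 15 genes 13 were in the table, and their median difference was -0.0062. In TPC1-C1orf106 6 had the greater and 7 the smaller value, beside 50.8% of all genes compared with the greater value. DROSHA, the nuclear enzyme that frees hairpins, was at 12.3 and 13.7 FPKM, and DICER1, which cuts hairpins to the mature length, was at 12.8 and 11.5 FPKM.

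The 10 LINC entries with the highest mean were all within 1.5-fold. LINC00152, now named CYTOR, was at 65.5 and 68.6 FPKM. LINC00657, now named NORAD, which binds Pumilio proteins and guards genome stability, was at 59.9 and 69.0 FPKM. LINC00958 was at 55.5 and 49.6 FPKM. LINC01116, from the flank of the HOXD cluster on chromosome 2, was at 20.2 and 18.4 FPKM. The differences of these 4 lay between -0.16 and 0.20.

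LINC00506, LINC01605 and LINC01111 differed more within this group. LINC00506 (chromosome 3, 87089280 to 87157069) was at 41.0 and 53.3 FPKM, a difference of 0.37. LINC01605 was at 23.0 and 29.3 FPKM, a difference of 0.34, and LINC01111 at 18.8 and 15.2 FPKM, a difference of -0.30. The last 2 both lie on chromosome 8 and had opposite directions.

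The remaining abundant entries are no longer regarded as noncoding. By the current RefSeq symbols, 120 of the 154 genes kept their name and 34 had been renamed. RefSeq now classes 141 as lncRNA, 10, TUG1 among them, as protein coding and 3 as transcribed pseudogenes. Most of the protein-coding ones encode very short proteins. LINC00998 (SMIM30) was at 50.8 and 50.3 FPKM, LINC00493 (SMIM26) at 33.7 and 35.2 FPKM, and LINC01420 (NBDY, a component of mRNA-decay bodies) at 16.7 and 18.6 FPKM. LINC00094 (BRD3OS) was at 9.37 and 9.41 FPKM, and LINC00116 (MTLN, the mitochondrial microprotein mitoregulin) at 2.97 and 2.92 FPKM. Each of these 5 pairs differed by 0.15 or less on the log2 scale. The median size of the difference over the 10 was 0.041, beside 0.20 over all 154 lncRNAs, whose levels were lower. LINC01279 and LINC00341, which RefSeq now assigns to CCDC80 and SYNE3, are listed separately from these genes, so reads of 1 locus may be split between entries.

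The 4 called higher were LINC01589, LINC01604, LINC01291 and LINC00852. LINC01589 (chromosome 22, 45604432 to 45605647) was at 1.5 and 2.88 FPKM, a difference of 0.76. LINC01604 (chromosome 8, 143280155 to 143281700), now named MINCR, a MYC-induced lncRNA, was at 2.01 and 3.49 FPKM, a difference of 0.67. LINC01291 (chromosome 2, 74909131 to 74938418) was at 1.84 and 3.08 FPKM, a difference of 0.61. LINC00852 (chromosome 3, 10248493 to 10293449) was at 0.489 and 0.984 FPKM, a difference of 0.59, and its position overlaps GHRLOS and TATDN2, so its reads may be shared with them. All 4 were at 2.01 FPKM or less in TPC1-Vector. With 1 added to each value in place of 0.5, only LINC01589 of them was still called. LINC00852 was also within 1.5-fold after quantile normalization (0.55).

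The other 6 of the 10 LINC entries with the largest positive differences stayed within 1.5-fold with 0.5 FPKM added to each value. With 0.1 added, LINC01127, LINC01311, LINC01588 and LINC01296 passed it (0.64 to 0.89). LINC01127 was at 0.417 and 0.857 FPKM, LINC01057 at 2.61 and 3.92 FPKM, LINC01311 at 0.907 and 1.5 FPKM, LINC00883 (DUBR) at 2.11 and 3.13 FPKM, LINC01588 at 0.62 and 1.04 FPKM, and LINC01296 at 0.459 and 0.773 FPKM. LINC01588 shares its deposited position with LINC01599, at 0.294 and 0.64 FPKM, and both had the greater value in TPC1-C1orf106. LINC01296 is now classed as the pseudogene DUXAP9, a family with very similar copies, so its value is uncertain.

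The 2 called lower were LINC01234 and LINC00106. LINC01234 (chromosome 12, 113744577 to 113773683) was at 3.42 and 1.82 FPKM, a difference of -0.76. LINC00106, from the pseudoautosomal region shared by the sex chromosomes, was at 1.01 and 0.406 FPKM, a difference of -0.74. With 1 added to each value it was within 1.5-fold (-0.52), and its mean did not reach 1 FPKM. LINC00704, now named MANCR, a lncRNA of mitotic cells, followed at 0.761 and 0.344 FPKM, a difference of -0.58 just inside the line.

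LINC00963 had the largest negative difference among lncRNAs at a mean of 5 FPKM or more. It lies on chromosome 9 (129488660 to 129513689) and was at 8.99 and 6.07 FPKM, a difference of -0.53. The remaining entries of the 10 largest negative differences were LINC01137 (1.43 and 0.919 FPKM), LINC01270 (0.786 and 0.484 FPKM), LINC01012 (0.961 and 0.647 FPKM), LINC00857 (10.3 and 8.13 FPKM), LINC01504 (1.92 and 1.45 FPKM) and LINC01184 (2.86 and 2.22 FPKM), between -0.44 and -0.31.

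The 49 lncRNAs below the filter were all under 1 FPKM in both groups. Their values are given for completeness, since a single value at this level carries an unknown counting error. Over all genes of the table, the smallest value in the higher of the groups was 0.278 FPKM. A weak entry may therefore be listed only through the group where it is higher, which favours large differences. On the scale used here 5 of them were past 1.5-fold higher and 3 past it lower. LINC01021, now named PURPL, a target of p53, was at 0.0642 and 0.457 FPKM. LINC00890 was at 0.0363 and 0.464 FPKM, LINC01461 at 0.0505 and 0.384 FPKM, and LINC01337 at 0.143 and 0.599 FPKM. LINC01063 is listed at 0 in TPC1-Vector and at 0.673 FPKM in TPC1-C1orf106, and LINC01433 is listed at 0.504 FPKM in TPC1-Vector and at 0 in TPC1-C1orf106. LINC01389 was at 0.506 and 0.0875 FPKM, and LINC00341 at 0.674 and 0.263 FPKM. Without the filter, 9 of 154 lncRNAs were thus higher and 5 lower (9.09% together), beside 2.51% and 1.5% of all genes (4.02% together). These shares are not matched for level, since 48.7% of the lncRNAs were under 1 FPKM in both groups, beside 11.9% of all genes.

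By structure, the lncRNAs differed from the coding genes of the table in transcript length and exon number. In GENCODE release 29, 142 of the 154 were found, 94 of them annotated as lincRNA, 16 as antisense and 9 as protein coding. The longest transcript of these 142 genes had a median of 2136 nt and 3 exons, and in 24 (16.9%) it had a single exon. Other transcripts of a gene were not counted, so such a gene may have spliced transcripts too. For the 11992 other genes of the table annotated as protein coding, the longest transcript had a median of 3710 nt and 8 exons. In 3.54% of them it had a single exon. NEAT1, at 22743 nt, was the longest of the 142. For LINC00341 and LINC01279 the transcripts used were those of the coding genes SYNE3 (13488 nt) and CCDC80 (12430 nt). The deposited position of 17 lncRNAs (11%) overlapped another gene of the table, compared with 19.8% of all genes. LINC names are given to intergenic transcripts and -AS symbols were left out, so the rule itself favours little overlap.

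Neighbouring genes were compared next, since many lncRNAs act on the gene beside them. For 103 of the 105 lncRNAs, the nearest gene that did not overlap and passed the filter was found, at a median distance of 28302 nt, compared with 8506 nt over all genes. The difference of the lncRNA had the same sign as that of its neighbour in 65 (63.1%), beside 54.4% of all genes. These shares count very small differences, and some lncRNAs are neighbours of each other. LINC00857 was 2032 nt from ANXA11, an annexin gene, which was at 78.6 and 62.5 FPKM. Their differences were both -0.33. LINC00704 was 370695 nt from AKR1C3, a steroid-reducing enzyme, which was at 10.4 and 4.91 FPKM, a difference of -1.01. A pair of opposite sign was LINC01604 and GLI4, 3223 nt apart. LINC01604 had a difference of 0.67, and GLI4, at 8.74 and 7.30 FPKM, of -0.24.

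For lncRNAs that RefSeq has renamed after a coding partner, 6 pairs could be read. LINC01057 (SLC44A3-AS1) was at 2.61 and 3.92 FPKM, whereas SLC44A3, a choline transporter-like gene 60 nt away, was at 1.18 and 0.756 FPKM. LINC01184 (SLC12A2-DT) had a difference of -0.31 and SLC12A2, an ion cotransporter gene, of -0.058. LINC00476 (ERCC6L2-AS1) had a difference of -0.28 and ERCC6L2 of -0.11, but both share 1 deposited position. LINC01534 (ZNF567-DT) had a difference of 0.39 and ZNF567 of 0.19. The pairs LINC00909 and ZNF407 (-0.18 and 0.038) and LINC00094 and BRD3 (0.0048 and -0.080, again at 1 shared position) had opposite signs, as did LINC01057 and SLC44A3. The pairs thus held 3 of like and 3 of opposite sign.

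Each lncRNA was also set beside the median difference of the genes within 1 Mb on either side, where 5 or more genes averaging 1 FPKM or more were found. This was possible for 76 lncRNAs, and 43 (56.6%) had the sign of the genes around them, beside 55.6% of all genes. Only 4 lncRNAs lay where this median was at least 0.2 in size. LINC00857 on chromosome 10 (-0.33, with a local median of -0.30) and LINC00888 on chromosome 3 (2.68 and 2.19 FPKM, with a local median of -0.23) had the sign of their surroundings. LINC01270 and LINC01271, which share a position on chromosome 20 (50292720 to 50321342), did not. LINC01271 was at 1.67 and 1.26 FPKM with a local median of 0.34, and LINC01270 had a difference of -0.39 with a local median of 0.32. CEBPB, the transcription factor gene nearest to both, was at 16.2 and 23.2 FPKM. Over all genes in such places, 87.9% of 594 had the sign of their surroundings.

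**Figure D5:**
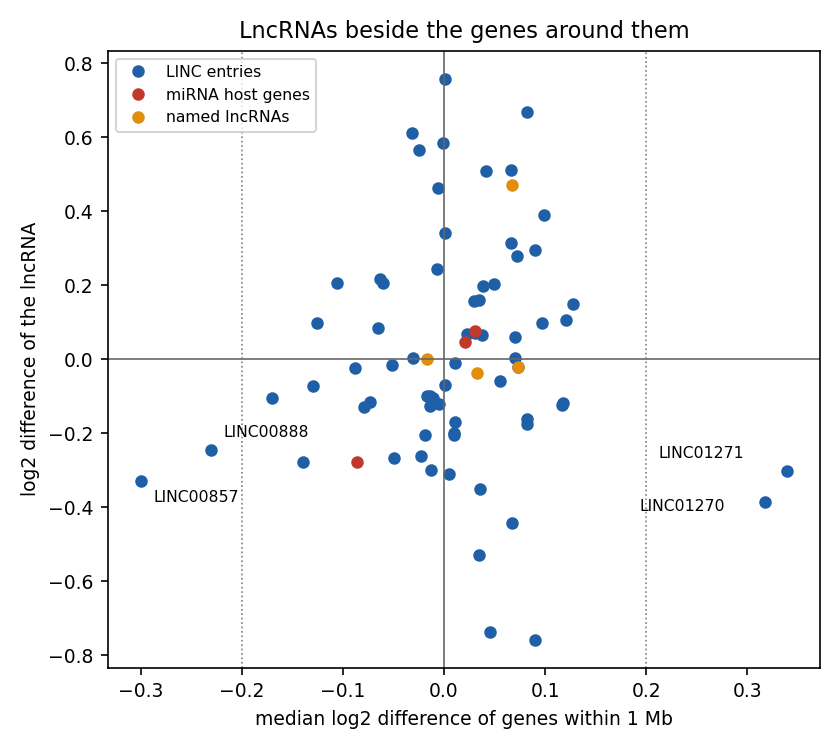
For 76 lncRNAs, the median log2 difference of the genes within 1 Mb (x axis) is drawn against the log2 difference of the lncRNA (y axis), both as TPC1-C1orf106 minus TPC1-Vector. Dotted lines mark a local median of 0.2 in size. LINC00857 and LINC00888 lie at the lower left and LINC01270 and LINC01271 at the lower right.

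Genes that work with the named lncRNAs were counted next, by lists. Over all 12305 genes compared, 3.7% were called in either direction and 6049 had the smaller value in TPC1-C1orf106. Of 12 paraspeckle proteins, all 12 were compared and 0 were called, with a median difference of -0.036, and 9 had the smaller value in TPC1-C1orf106. SFPQ, a core paraspeckle protein, was at 240.5 and 224.9 FPKM. Of 11 subunits and partners of the PRC2 complex, which places a repressive histone mark and has been linked to HOTAIR, 0 were called and 10 had the smaller value, with a median of -0.084. EZH2, its catalytic subunit, was at 19.4 and 17.9 FPKM.

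Of 19 host genes of snoRNAs in the table, GAS5 among them, 0 were called higher and 1 lower, beside 2.24% and 1.45% of all genes compared, with a median difference of -0.0071. The called gene was SNHG9, at 20.6 and 10.5 FPKM. Only SNHG6, at 289.2 and 273.7 FPKM, was above GAS5 in this list. Of 10 genes of nonsense-mediated decay, a route that degrades GAS5, 0 were called (median 0.069), with UPF1, its helicase, at 41.0 and 46.4 FPKM. Of 21 genes of nuclear RNA decay, which removes many unstable noncoding transcripts, 0 were called (median 0.055), and EXOSC10, a nuclease of the nuclear exosome, was at 44.3 and 42.9 FPKM. Of 8 listed partner genes of lncRNAs, 3 were in the table, MYC among them. CDKN1A, the p53 target encoding p21, was called higher at 71.8 and 172 FPKM, and LIF was at 19.2 and 18.8 FPKM. Neither CDKN1A nor LIF was the nearest neighbour of a lncRNA examined here, and a link to one was not tested.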

How the data were processed

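RNA from 4 libraries, 2 of TPC1-Vector and 2 of TPC1-C1orf106 cells, had been sequenced. The deposited values are FPKM made by the authors, with 1 value for each gene in each group. The submitters' processing notes name CASAVA, Cufflinks 2.1.1, Cuffdiff and the hg38 build. The aligner and annotation are not given in the sources used here. A NEBNext Ultra kit is named in the labels and a VAHTS mRNA-seq kit in the paper's methods. The table also holds the authors' own log2 ratio, p-value and q-value, which were not used.

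Groups were taken from the sample titles. With 1 value per group the planned limma fit could not be run. Differences of log2(FPKM + 0.5) were computed for genes averaging 0.5 FPKM or more and called at 1.5-fold, with no test. Named were C1orf106, all named lncRNAs and host genes found, the 10 LINC entries of highest mean, the 10 largest differences in each direction, every LINC entry past 1.5-fold, their neighbours, and list genes past 1.5-fold with examples. Entries below the filter were added after their values were seen. Members and lists were chosen with earlier results of these data known. Deposited starts count from 0 and are given counting from 1. GENCODE release 29 (GRCh38) and RefSeq (GRCh38.p14) gave transcripts, symbols and sequences. Python 3.11.15, numpy 2.4.6 and pandas 2.3.3 were used. Alternatives were filters, pseudocounts, scalings, a 2-fold threshold, and leaving out overlapping genes or chromosomes 3, 10 and 20.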

Additional observations from a re-analysis of the deposited data

How the results depend on the processing

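No paired analysis was possible because replicates were merged into 1 value for each group, and leaving out each library in turn was not run for the same reason. The depth is unknown, so the counting error of weak lncRNAs cannot be stated. The 4 lncRNAs called higher and 2 called lower became 9 and 5 with no filter, 8 and 4 with 0.1 added to each value, 1 and 1 with 1 added, and 0 and 0 at 2-fold. Among genes averaging 1 FPKM or more, 3 were higher and 1 lower. By construction a smaller pseudocount enlarges, and a larger one shrinks, differences of weak genes. The median difference of -0.021 was 0.0040 with no filter and stayed below 0 in the other alternatives, where the median of all genes moved by under 0.1. Of the named lncRNAs, LINC00852 fell under the line with both scalings, TUG1 changed sign (-0.0017 and -0.014), and LINC00704 passed the line with quantile normalization.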

Other observations

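Some well-known lncRNAs have names outside the rule. Of 25 lncRNAs listed, 16 were in the table under such names, and NORAD and CYTOR are the LINC00657 and LINC00152 of the rule. Of the 16, 15 passed the filter on low values, with a median difference of 0.062. UCA1, a lncRNA first described in urothelial cancer, was at 2.21 and 3.71 FPKM and was called higher. RMRP and RPPH1, the RNA components of the RNases MRP and P, were at 2.82 and 5.39 FPKM, called higher, and at 0.856 and 0.347 FPKM, called lower. All 3 averaged under 5 FPKM, where 6.91% of all genes compared were called. The other 12 were within 1.5-fold. DANCR, a snoRNA host, was at 111.6 and 118.4 FPKM, OIP5-AS1 at 26.0 and 24.3 FPKM, CRNDE at 13.2 and 10.6 FPKM, and FTX, a lncRNA of the X-inactivation centre, at 1.46 and 0.95 FPKM.

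The rule left out 4 entries with LINC or miRNA host gene names, of which MIR4435-2HG and LINC-PINT are among the 16 above. MIR4435-2HG, whose sequence is closely related to that of LINC00152 (65.5 and 68.6 FPKM), was at 63.6 and 61.5 FPKM, and how reads of the pair were divided was not tested. LINC-PINT was at 1.48 and 1.61 FPKM, LINCMD1 at 1.29 and 0.838 FPKM and MIRLET7DHG at 1.61 and 1.31 FPKM.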
